A study of Homo sapiens with 6 samples.

Results

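PSME3 and the 3 copper amine oxidase loci that follow it on the same strand of chromosome 17, AOC2, AOC3 and the pseudogene AOC4P, are described here across 6 RNA sequencing libraries. They were taken by symbol, and all 4 had a row among the 32322 rows of the deposited table that name a gene. The 4 genes were chosen by their measured values, the change in normalized counts between compound 28 and DMSO, so their levels and changes are given as a description with no test. The libraries came from human cells titled MDA-MB-231, an established line of triple-negative breast cancer, of wild-type genotype per the labels. They comprised 3 libraries after 4 h with 500 nM of compound 28, described by the series title as a degrader of CDK9, and 3 after DMSO, the solvent control, for which no time is given separately. The titles of all 6 libraries name this line, whereas the cell line label differs from library to library, its last being MDA-MB-236. The labels do not state whether replicates came from different cultures, and a p-value here reflects the scatter of these libraries, possibly technical scatter alone.

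The gene PSME3 encodes PA28gamma (also called REGgamma), a nuclear cap of the proteasome that opens the core particle and promotes degradation of proteins without ubiquitin. Copper amine oxidases remove the amino group from primary amines and release an aldehyde, ammonia and hydrogen peroxide, using copper and a quinone made from a tyrosine of the enzyme itself. AOC3, known as vascular adhesion protein 1, sits on the surface of endothelial cells, smooth muscle cells and adipocytes and helps leukocytes to leave the blood. AOC2 is known as the retina amine oxidase. AOC4P is a human pseudogene whose counterpart encodes a plasma amine oxidase in cattle. CDK9 is the kinase that releases RNA polymerase II from pausing near promoters, and it also acts while transcription goes on toward the end of the gene.

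Reads assigned to genes ranged from 37186728 to 54830987 in the DMSO libraries and from 28505897 to 34062330 in the compound 28 libraries. The labelled cell type was compared with its markers. The mesenchymal markers VIM and CD44 were abundant, at 3056 and 9049 normalized counts on average in DMSO. TGFBI, ANXA1 and AXL were present as well, at 1457, 531 and 141. CAV1 had 1 read and MET 0 reads over the 3 DMSO libraries, and no row bore the symbols CAV2 or EGFR. All 6 leukocyte markers were present, with a summed level of 76517 to 78957 normalized counts in DMSO and 92706 to 101419 in compound 28. PTPRC, the common leukocyte antigen CD45, stood at 3419 ± 873 normalized counts in DMSO (SD, n = 3). The leukocyte markers and the near absence of CAV1 and MET therefore went against the labelled cell type. The other mesenchymal markers with a row were present. The cells are called by their titles only, which these markers as a whole do not bear out.

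The first exons of the AOC loci show how the loci are related and what could blur their counts. On GRCh38, those of AOC2 (chr17:42844751-42844833), AOC3 (chr17:42851480-42851562) and AOC4P (chr17:42867412-42867494), all on the + strand, hold a run of 47 identical bases. It is shown in capitals with 18 bases on either side, from GENCODE 29 transcripts, and it lies in coding sequence in AOC2 and AOC3.
AOC2: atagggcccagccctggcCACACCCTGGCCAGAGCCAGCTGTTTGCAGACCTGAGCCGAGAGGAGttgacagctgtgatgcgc
AOC3: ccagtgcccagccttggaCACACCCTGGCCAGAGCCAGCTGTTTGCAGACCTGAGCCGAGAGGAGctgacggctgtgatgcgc
AOC4P: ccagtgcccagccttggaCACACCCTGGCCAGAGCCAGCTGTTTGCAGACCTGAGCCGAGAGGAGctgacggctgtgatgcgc

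Over these 83 bases AOC4P was identical to AOC3, while AOC2 differed from AOC3 at 7 positions, written with the base of AOC3 first and counted from 1 at the first printed base: C1A, C2T, T5G, T14C, A18C, C66T and G71A. That run was the longest that AOC2 shared with either of the other loci, so no window of 50, 75 or 100 bases was common to AOC2 and AOC3 or to AOC2 and AOC4P. The pseudogene was closer to AOC3, with a longest identical run of 241 bases in the first exon (AOC3 chr17:42851613-42851853, AOC4P chr17:42867545-42867785, GRCh38, + strand), shown because reads inside it cannot be placed in one of these loci by their sequence.
AOC3 and AOC4P: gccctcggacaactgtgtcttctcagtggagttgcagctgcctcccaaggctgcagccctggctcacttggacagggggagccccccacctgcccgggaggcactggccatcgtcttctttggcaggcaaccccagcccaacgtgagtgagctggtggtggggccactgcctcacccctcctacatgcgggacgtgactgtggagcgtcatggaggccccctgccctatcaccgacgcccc

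Of all windows of 75 bases, 9.62% of those in AOC3 transcripts and 13.8% of those in AOC4P transcripts were found in both, so the division of reads between AOC3 and AOC4P is uncertain to that extent. The main transcripts of the 3 AOC loci had 4 exons each, and exon 2 (286 bases) and exon 3 (130 bases) had the same length in all of them. The coding sequence was 2268 bases in AOC2 and 2289 bases in AOC3. PSME3 is no relative of the AOC genes, and its longest run in common with AOC2 was 12 bases.

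RefSeq promoter entries on GRCh38.p14 were matched for 2 of the 4 loci, AOC2 and PSME3, but not for AOC3 and AOC4P. The 250 bases before the annotated start of AOC2 (chr17:42844330-42844579, + strand) lie in the interval between PSME3 and AOC2 and are shown because AOC2 is the first gene beyond PSME3. The capitals mark TATAAA and ATTGG, the latter being CCAAT on the other strand.
AOC2: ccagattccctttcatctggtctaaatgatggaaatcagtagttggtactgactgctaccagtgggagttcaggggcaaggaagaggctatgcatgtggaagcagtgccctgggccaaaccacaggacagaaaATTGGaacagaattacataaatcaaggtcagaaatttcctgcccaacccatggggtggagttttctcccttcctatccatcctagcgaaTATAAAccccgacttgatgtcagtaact

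TATAAA began 28 bases before the AOC2 start, and 10.7% of 35116 promoter windows of the same 250 bases held it on either strand. CCAAT, held by 32.0% of windows, was found on the reverse strand of both promoters. CACGTG, held by 6.34% of windows, was found in the PSME3 promoter in the window chr17:42833343-42833372 (GRCh38.p14, + strand), with CACGTG in capitals, and not in that of AOC2.
PSME3: ggctgcgcagcgCACGTGcacagcctcgca

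GGGCGG and TGACGTCA, searched on both strands as well, were in neither window and in 42.6% and 1.65% of all windows. CG dinucleotides numbered 21 in the PSME3 window and 2 in the AOC2 window, against a median of 11. AATAAA, the common polyadenylation signal, lay in the last 50 bases of the longest coding transcript of PSME3, AOC2 and AOC3, as in 60.2% of 19669 coding genes, and not in those of the longest AOC4P transcript. These matches describe the letters only.

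Normalized counts, here read counts divided by the size factor that the authors gave each library, showed an expressed first gene followed by 3 low or silent loci in DMSO and 4 expressed loci in compound 28. PSME3 had 4996, 5041 and 5834 normalized counts in DMSO replicates 1 to 3 and 4035, 3746 and 4688 in compound 28 replicates 1 to 3. Every compound 28 library was lower than every DMSO library. The means were 5290.2 ± 471 and 4156 ± 483 (SD, n = 3), a log2 change of -0.35. In bulk RNA fewer cells expressing a gene and less of its RNA per cell cannot be told apart.

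AOC2 had 35.9, 39.5 and 23.3 normalized counts in DMSO, from 62, 61 and 27 reads, and 1025, 982 and 1076 in compound 28. The groups lay far apart, and the 3 compound 28 libraries were close to each other. The means were 32.9 ± 8.52 and 1028 ± 46.7 normalized counts (SD, n = 3), a ratio of 31.3 and a log2 change of 4.96 on the log2(normalized count + 1) scale used throughout.

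AOC3 had 2.32, 5.18 and 0 normalized counts in DMSO, from 4, 8 and 0 reads, and 1134, 1047 and 1062 in compound 28. The gene was near the floor of detection in each DMSO library. Its means were 2.50 ± 2.59 and 1081 ± 46.8 normalized counts (SD, n = 3), a ratio of 433 that rests on 12 reads in DMSO, and a log2 change of 8.63. Single DMSO libraries moved that change, to 7.90 without replicate 3 and 9.21 without replicate 2.

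AOC4P had 0 reads in each DMSO library and 201, 252 and 232 normalized counts in compound 28, from 137, 200 and 149 reads. It was the least abundant of the 4 loci in both groups. Its compound 28 mean of 228 ± 25.3 normalized counts (SD, n = 3) was at least 337-fold higher, the DMSO level being set at a floor of 3 reads summed over that group. In the authors' deposited table the log2 fold changes were -0.35 for PSME3, 4.94 for AOC2, 8.65 for AOC3 and 10.8 for AOC4P, the last with a standard error of 1.20, the largest of the 4.

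**Figure D1:**
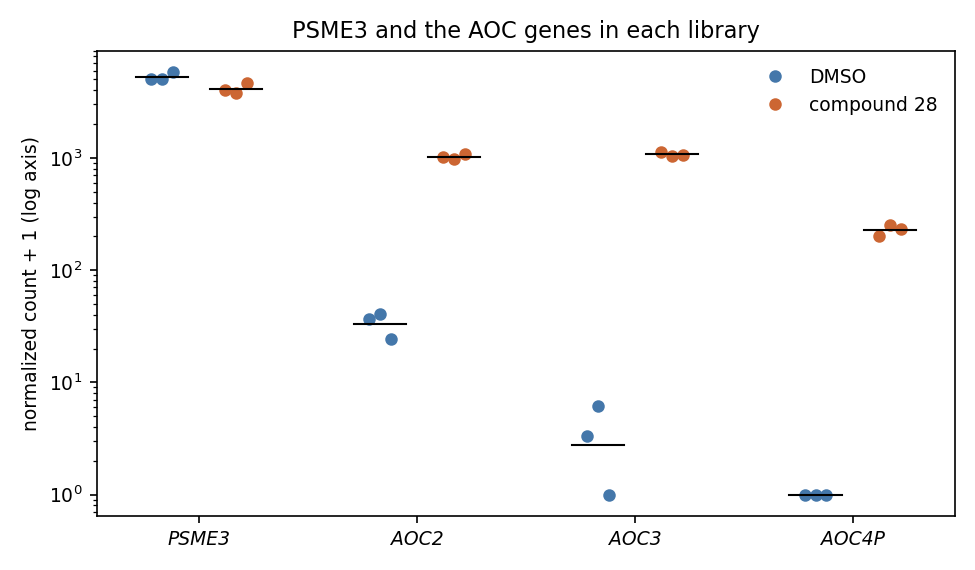
Normalized count + 1 on a log axis for PSME3, AOC2, AOC3 and AOC4P, 1 point per library, DMSO in blue and compound 28 in orange, with a bar at the geometric mean of the 3 libraries. The AOC2 libraries lie between 23.3 and 39.5 normalized counts in DMSO and between 982 and 1076 in compound 28, whereas PSME3 lies between 3746 and 5834 in all 6.

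The groups did not overlap for any of the 4 genes, and they did not overlap for 75.7% of the 18278 genes tested, so this is common in the data and nothing is read from it. Of all tested genes, 72.8% were called in either direction, 35.5% higher and 37.3% lower in compound 28 (limma-trend, adjusted p under 0.05). No call is given for the 4 genes, since they were selected on that same contrast. AOC3 and AOC4P had fewer than 10 reads in each DMSO library and passed the filter on low values through the compound 28 libraries alone. A rise on the log2(normalized count + 1) scale at least as large as that of AOC2 was seen in 1.76% of tested genes.

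Set against PSME3 in the same library, AOC2 stood at 0.719%, 0.783% and 0.399% of its normalized count in DMSO and at 25.4%, 26.2% and 22.9% in compound 28. AOC3 stood at 28.1%, 27.9% and 22.6% in compound 28 and at 0.103% or less in DMSO. AOC4P stood at 4.99%, 6.72% and 4.94% in compound 28. Compound 28 replicate 3, the library with the highest PSME3 count of its group, gave the lowest share for AOC2, AOC3 and AOC4P. The counts of AOC2, AOC3 and AOC4P together were 35.4 ± 11.0 in DMSO and 2337 ± 48.8 in compound 28 (SD, n = 3), while the sum with PSME3 was 5326 ± 461 and 6493 ± 522 normalized counts.

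Levels of different genes were compared per kilobase of merged exons in GENCODE 29. In each compound 28 library they were lower from locus to locus along the strand. PSME3 had 783, 727 and 909.9 normalized counts per kilobase, AOC2 386, 369.7 and 405, AOC3 251, 231 and 235, and AOC4P 63.5, 79.4 and 73.1. No value of one gene overlapped those of the next, so each step was larger than the spread between the 3 libraries. AOC2 and AOC3 changed places when the counts were not divided by length, with AOC3 at 1.05 ± 0.0605 times the normalized count of AOC2 (SD, n = 3), a range of 0.987 to 1.11 that includes equal counts.

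In DMSO the same order held for the means, at 1027 ± 91.4, 12.4 ± 3.21 and 0.552 ± 0.574 normalized counts per kilobase for PSME3, AOC2 and AOC3 (SD, n = 3), with AOC4P at 0 reads. The drop from PSME3 to AOC2 was therefore much steeper in DMSO, where AOC2 had 1.23% ± 0.399 of the PSME3 level per kilobase, than in compound 28, where it had 48.2% ± 3.31 (SD, n = 3). This share depends on the length used for PSME3, whose merged exons include many alternative transcripts: with the longest transcript of each gene it was 0.803% ± 0.261 and 31.5% ± 2.16. In compound 28 AOC3 had 29.9% ± 3.54 and AOC4P 9.02% ± 1.65 of the PSME3 level per kilobase, or 21.9% ± 2.60 and 8.16% ± 1.49 with the longest transcripts (SD, n = 3). The order of the loci was the same with both lengths.

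**Figure D2:**
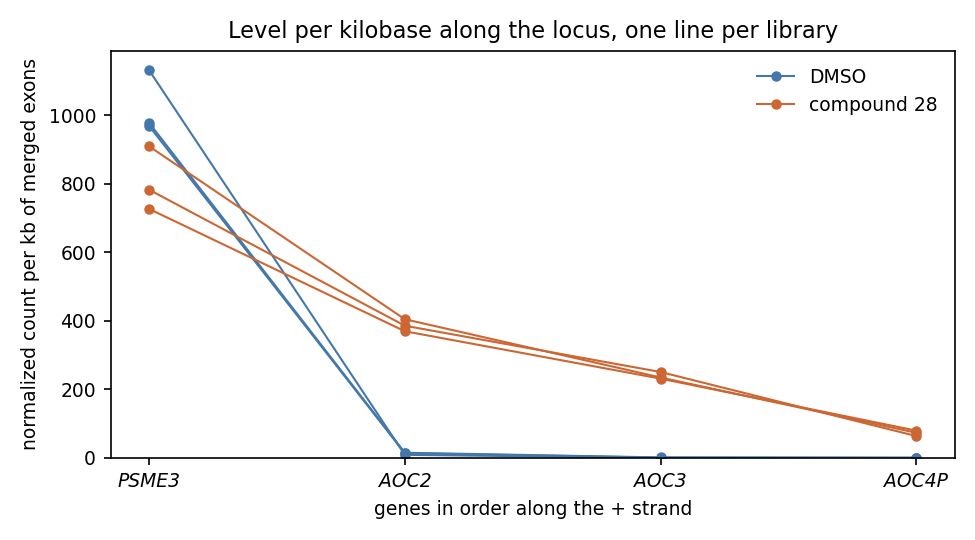
Normalized count per kilobase of merged exons on a linear axis for the 4 loci in their order along the + strand, 1 line per library, DMSO in blue and compound 28 in orange. The DMSO lines drop from about 1027 at PSME3 to 12.4 at AOC2, and the compound 28 lines step down through 386.8 at AOC2 and 239 at AOC3 to 72.0 at AOC4P.

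The neighbouring genes were the 8 on either side with a row in the table, taken by annotation order. On GRCh38 AOC2 begins 0.842 kb beyond the end of PSME3 in GENCODE 29, and AOC3, AOC4P and LINC00671 begin or end, on the near side, 7.43, 22.2 and 30.9 kb beyond it. Of 11 neighbours tested, 4 were higher, 4 lower and 3 not called (limma-trend, adjusted p under 0.05), against 35.5% and 37.3% of all genes. The 4 higher include LINC00671 and WNK4, which passed the filter on low values only through the compound 28 libraries. These few counts are therefore not read as near to or far from the shares of all genes.

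The loci just beyond AOC4P were also silent in DMSO. LINC00671, a long noncoding RNA gene on the other strand, had 0 reads in DMSO and 96.9, 76.7 and 96.4 normalized counts in compound 28, at least 133-fold higher with the same floor for DMSO (adjusted p = 3.5e-07, limma). It passed the filter on low values through the compound 28 libraries alone, so nothing is read from that p or from its place among the 4 higher neighbours. Its level was 41.5 ± 5.31 normalized counts per kilobase (SD, n = 3), below that of AOC4P. The library kit marks strand, but whether the counting used strand is not given in the sources used here, so reads from the strand of the AOC genes and from LINC00671 cannot be told apart.

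G6PC, which encodes the catalytic subunit of glucose-6-phosphatase and is the next coding gene on the strand of PSME3, had 0 reads in DMSO and 7.34, 18.9 and 23.3 normalized counts in compound 28, from 35 reads in all. It did not pass the filter and was not tested. Per kilobase it stood at 5.01 ± 2.50 normalized counts in compound 28 (SD, n = 3), so the level per kilobase was lower at each step from AOC4P to LINC00671 to G6PC, and the ranges of the 3 libraries did not overlap from gene to gene in normalized counts. RNU6-287P, a pseudogene of the U6 small nuclear RNA, had 5 reads in all and was not tested.

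Farther out the genes were expressed in both groups and went both ways. AARSD1, an editing protein for alanyl-tRNA, fell from a mean of 128 ± 18.5 normalized counts in DMSO to 45.9 ± 5.04 after compound 28 (SD, n = 3) with an adjusted p of 2.4e-04 (limma). RUNDC1 rose from 1098 ± 83.9 to 3608 ± 423 (SD over 3 libraries) by a log2 change of 1.71 (adjusted p = 3.1e-07, limma), and RPL27, a protein of the large ribosomal subunit, had a log2 change of 1.12 that passed. IFI35, an interferon-induced gene, had a log2 change of -0.61 that passed, and PTGES3L was not called (log2 change -0.53, adjusted p = 0.25, limma), though it was lower with library sizes only (-0.97) and with mitochondrial scaling (-1.94). The calls of RUNDC1 and RPL27 depended on the scaling as well: with scaling on mitochondrially encoded mRNAs RUNDC1 was not called (log2 change 0.26) and RPL27 was lower (-0.34).

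On the side before PSME3, 1 of 5 tested neighbours was higher, WNK4, and 2 were lower, against 35.5% and 37.3% of all genes. BECN1, an autophagy gene whose start lies close to that of PSME3 on the other strand, averaged 1904 ± 141 normalized counts in DMSO against 1979 ± 189 (SD, n = 3) and was not called (log2 change 0.05, adjusted p = 0.65, limma), though it was lower with library sizes only (-0.40) and with mitochondrial scaling (-1.40). Some annotated transcripts of BECN1 and PSME3 overlap. COA3, an assembly factor of cytochrome c oxidase, fell from 845 ± 91.6 normalized counts to 213 ± 11.4 (SD, n = 3) with an adjusted p of 4.6e-07 (limma), and VPS25, a subunit of the ESCRT-II sorting complex, had a log2 change of -1.01 that passed.

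WNK4, a kinase that regulates salt transport in the kidney and the next gene beyond VPS25 on the same strand, rose from 18.8 ± 9.80 normalized counts to 139 ± 13.5 (SD, n = 3), a log2 change of 2.98 (adjusted p = 7.5e-05, limma). With 38, 41 and 9 reads in DMSO, WNK4 would not have passed the filter on low values without the compound 28 libraries. Nothing is therefore read from that p or from its place among the 4 higher neighbours. CNTD1, a cyclin-like gene of meiosis, was not called in the authors' scaling (log2 change -0.71, adjusted p = 0.063, limma) and was lower with library sizes only (-1.15), with mitochondrial scaling (-2.12) and without DMSO replicate 3 (-0.92). RAMP2, RAMP2-AS1 and HMGN2P15 had 4, 27 and 7 reads over all 6 libraries and were not tested.

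**Figure D3:**
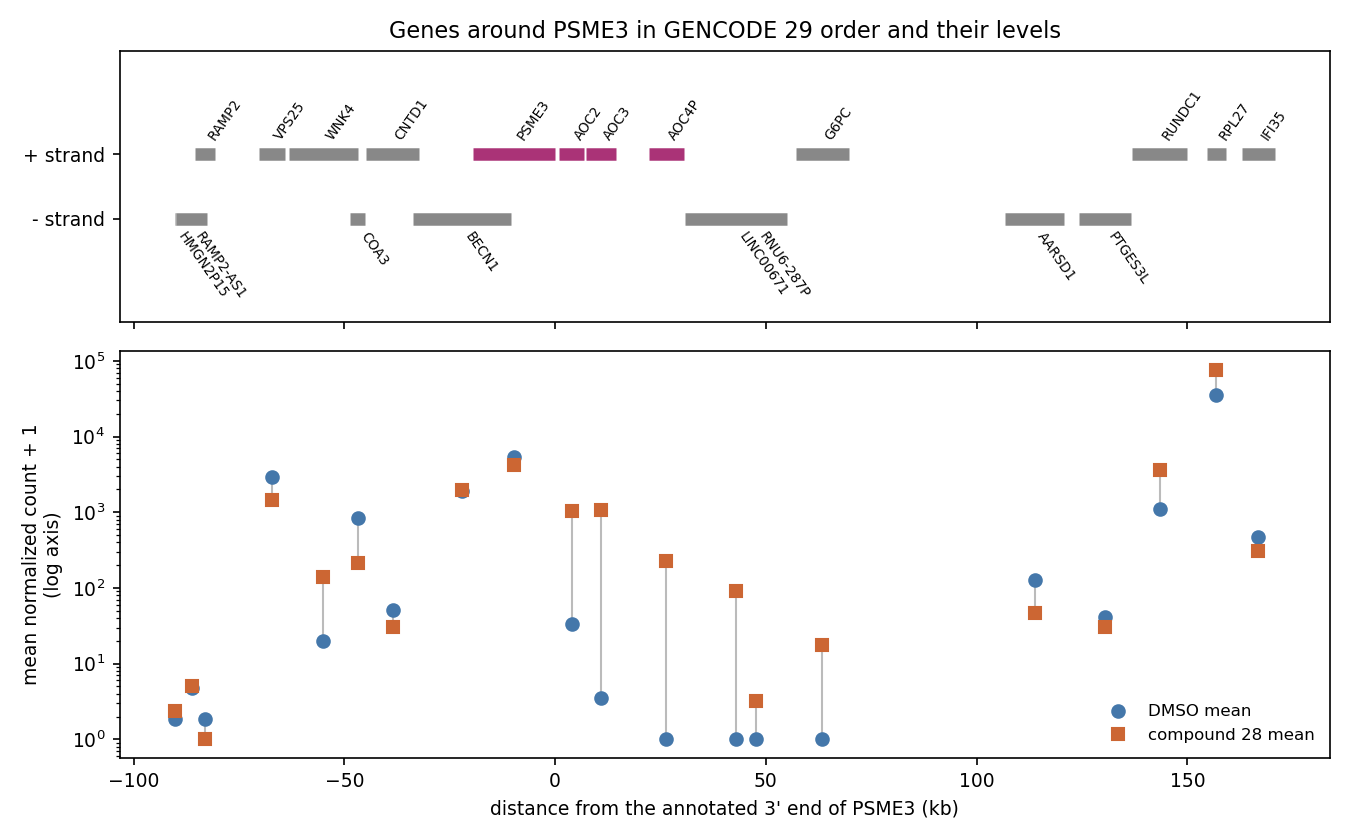
Top, genes around PSME3 by strand and distance in kilobases from its annotated 3' end (GENCODE 29), with PSME3 and the AOC loci in purple. Bottom, mean normalized count + 1 of each gene on a log axis, DMSO as blue circles and compound 28 as orange squares joined by a line. From AOC2 through G6PC the DMSO means are 32.9 or lower and the compound 28 means step down from 1081 at AOC3 to 16.5 at G6PC, apart from RNU6-287P.

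The position of AOC2, a low gene beyond an expressed one, was compared with other such positions at any distance. AOC2 begins 0.842 kb beyond PSME3, whereas no limit was set on the distance within a pair. Genes overlapping the end of the upstream gene were passed over. The shares below are therefore not those of close neighbours. A pair was counted where the upstream gene had a mean of at least 1000 normalized counts in DMSO and the next gene beyond its 3' end was tested and had under 10% of that. When the gene beyond lay on the same strand, as AOC2 does, 670 of 1116 (60.0%) were called higher and 151 (13.5%) lower. When it lay on the other strand, 526 of 891 (59.0%) were higher and 129 (14.5%) lower. Both shares were above the 35.5% of all tested genes, and they were close to each other. The low level that defines these pairs was measured in the same DMSO libraries as the change, so a higher share is built in to an extent that was not tested. A gene low in DMSO could also enter only because its compound 28 libraries passed the filter on low values. The 35.5% covers genes at every level, so nothing is read from the excess over it. The same limits hold for the other classes of pairs given below.

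Large changes were a small share of these pairs. A log2 change at least that of AOC2 was seen in 88 of 1116 genes on the same strand (7.89%) and in 62 of 891 on the other strand (6.96%). A limit of under 2% of the level of the upstream gene gives a class that includes AOC2. There it was seen in 88 of 726 (12.1%) on the same strand and 62 of 584 (10.6%) on the other. In that class 67.1% and 70.5% were called higher. With a limit of 50% so large a change was seen in 88 of 1637 (5.38%) and 62 of 1358 (4.57%). The 88 and 62 genes were the same under every limit, so these shares differ only through the number of pairs. They are not separate results. With upstream genes of at least 200 normalized counts the shares were 7.16% and 6.86%. The shares lay farther apart with upstream genes of at least 5000 normalized counts, a class that includes PSME3, at 35 of 317 (11.0%) and 11 of 233 (4.72%). AOC2 itself is counted in all these shares on the same strand. Its change, for which it was chosen, also sets the cut. These are counts over genes, which share libraries and neighbours, and no test was made of the shares.

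**Figure D4:**
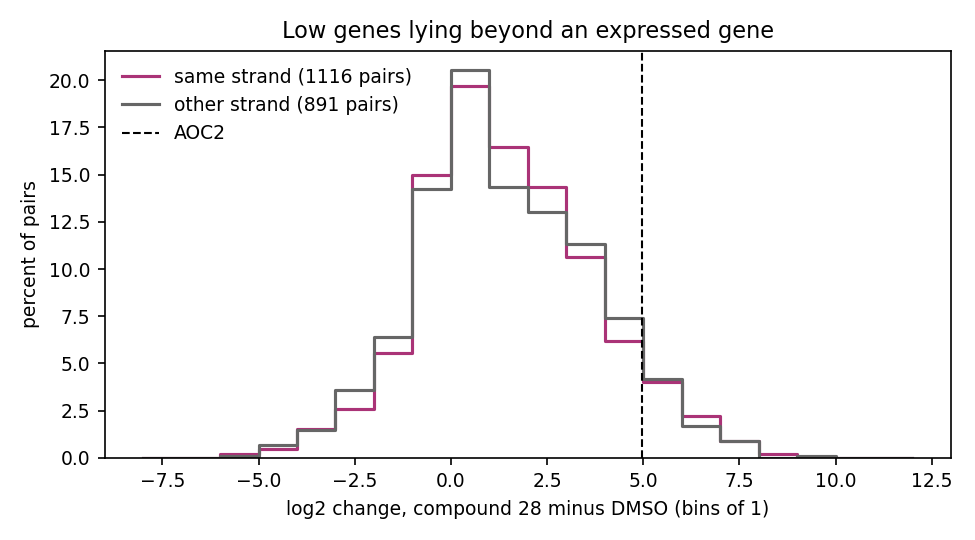
Percent of pairs by the log2 change of the low gene beyond an expressed gene, in bins of 1, for 1116 genes on the same strand (purple) and 891 on the other strand (grey), with the change of AOC2 as a dashed line at 4.96. Both outlines lie mostly to the right of 0, with medians of 1.28 and 1.17, and few genes lie beyond the dashed line.

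Amine oxidases outside the locus were taken as a list of copper enzymes and flavin enzymes. Of 11 genes, 7 were tested, of which 3 were higher, 2 lower and 2 not called, against 35.5% and 37.3% of all genes, with a median log2 change of -0.05 against -0.03 over all tested genes. AOC1, the diamine oxidase and the only AOC gene on the list, had 50 reads in DMSO and 14 in compound 28 and was not tested. LOX, the lysyl oxidase that crosslinks collagen, rose from 10.5 ± 5.74 normalized counts to 124 ± 48.2 (SD, n = 3), a log2 change of 3.51 (adjusted p = 6.6e-05, limma). With 27, 18 and 5 reads in DMSO, LOX would not have passed the filter on low values without the compound 28 libraries. Nothing is therefore read from that p, from its place among the 3 higher or from the share of higher calls in this short list. SMOX, the spermine oxidase and most abundant of the list in DMSO, fell from 689 ± 35.8 to 205 ± 26.6 (SD, n = 3), and IL4I1, an L-amino acid oxidase of immune cells, had a log2 change of -2.06; both passed. In compound 28 LOXL3, another lysyl oxidase, was more abundant, at 515 ± 71.7 normalized counts (SD, n = 3). The leukocyte receptor SIGLEC9, a known ligand of AOC3, fell from 170.1 ± 5.86 normalized counts to 47.1 ± 6.38 (SD, n = 3) with an adjusted p of 2.4e-05 (limma), and SIGLEC10, another ligand, was not called (log2 change -0.35, adjusted p = 0.13, limma), though it was lower with library sizes only (-0.80), with mitochondrial scaling (-1.80) and without compound 28 replicate 2 (-0.56).

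Among the other proteasome activators, PSME1 and PSME2, which form the interferon-inducible cap PA28alpha-beta, both rose in the authors' scaling, with log2 changes of 0.80 and 0.58 (adjusted p = 9.2e-06 and 3.7e-04, limma), and PSME4, the activator PA200, was not called (0.23). Of 21 genes tested among the other activators, the inhibitor PSMF1, the 20S core and the PSME3 partner FAM192A, 10 were higher, 4 lower and 7 not called, against 35.5% and 37.3% of all genes, with a median log2 change of 0.23 against -0.03. PSMA1 had the largest rise (log2 change 1.00), PSMA8, a testis-enriched core subunit, the largest fall (-1.03), and PSMA7, the most abundant, had a log2 change of 0.31; all 3 passed. These directions depended on the scaling: with library sizes only 2 were higher and 10 lower, and with scaling on mitochondrially encoded mRNAs 0 were higher and 21 lower, PSMA1 (-0.45), PSMA7 (-1.15), PSME1 and PSME2 among them.

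The log2 changes of the 4 loci kept their sign under each scaling, as the plot by setting shows. A fall was not possible for AOC4P, which had no reads in DMSO. PSME3 went from -0.35 in the authors' scaling to -0.80 with library sizes only and -1.81 with scaling on mitochondrially encoded mRNAs, while the median of all genes went from -0.03 to -0.48 and -1.47. Less that median it was -0.32, -0.32 and -0.34. AOC2 less the median was 4.99 in each of these scalings. A scaling shifts a well-counted gene and the median by nearly the same amount, so these differences hold by arithmetic. AOC4P, with 0 reads in DMSO, had a log2 change of 7.83 that moved to 8.83 with a pseudocount of 0.5, to 5.54 with 5, and to 10.9 in edgeR and in DESeq2.

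**Figure D5:**
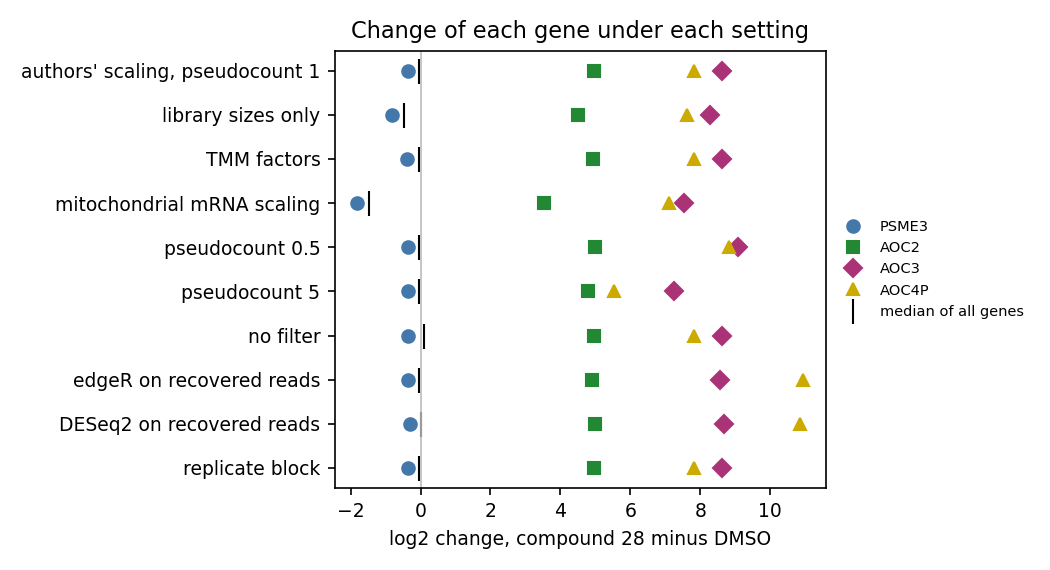
Log2 change (compound 28 minus DMSO) of PSME3, AOC2, AOC3 and AOC4P under each setting, with the median of all genes as a black tick. PSME3 lies left of 0 and the AOC loci right of 0 in every row, and AOC4P spans 5.54 to 10.9.

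For each AOC locus the 3 genes nearest in level and pattern were found by the root mean square distance in log2(normalized count + 1) over the 6 libraries. Nearest to AOC2 were TG (thyroglobulin, distance 0.20), AC010327.4 (0.26) and RFTN2 (0.44). Nearest to AOC3 were NPC1L1, a cholesterol transporter of the intestine (0.81), CNTD2 (0.83) and RAPSN, which clusters acetylcholine receptors at the muscle synapse (0.94). Nearest to AOC4P were GREM1, a secreted BMP antagonist (0.13), CYP26A1, which breaks down retinoic acid (0.30), and BTLA, an inhibitory receptor of lymphocytes (0.31), each with 0 reads in DMSO. The AOC loci were farther from each other, at 2.60 between AOC2 and AOC3, 2.05 between AOC3 and AOC4P and 3.89 between AOC2 and AOC4P. Their DMSO means were 32.9, 2.50 and 0 normalized counts for AOC2, AOC3 and AOC4P. Of the other tested genes, 87 lay nearer to AOC3 than AOC4P did. To AOC2, 2185 lay nearer than AOC3 did and 9378 nearer than AOC4P did. The median distance over those genes was 5.67 from AOC3 and 3.86 from AOC2.

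Markers of cell types in which AOC3 or AOC2 is known to be abundant had higher summed levels in compound 28, as did the luminal breast markers (307 to 371 normalized counts in DMSO and 447 to 524 in compound 28) and the leukocyte markers, while the mesenchymal markers summed to 14083 to 14384 and 11541 to 12503. Smooth muscle markers summed to 144 to 189.9 normalized counts in DMSO and 433 to 631 in compound 28, and 2 of 5 were tested, ACTA2 and MYH11, both higher, against 35.5% of all genes. Endothelial markers summed to 5.83 to 10.3 and 78.0 to 112, with no row under the symbol PECAM1 and with CDH5 at 1 and 11 reads. Retina markers summed to 0 to 6.37 and 36.7 to 61.6. CLDN5 and SAG, the endothelial and retina markers that were tested, passed the filter through the compound 28 libraries alone, so no call is given for them. Adipocyte markers summed to 1.72 to 9.84 and 22.0 to 38.9, with 0 of 3 tested and with no row under the symbols ADIPOQ and FABP4. The part of these cell types in the AOC levels was not tested.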

How the data were processed

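The submitters' processing notes name HTSeq, HISAT2, SAMtools, StringTie and fastp, and as genome builds hg19 and GRCh37. Their versions and parameters, and whether counting used strand, are not given in the sources used here. Each of 32327 rows in the deposited table holds a normalized signal for each library; judged by its values, the signal equals reads over 1 size factor. All values above 0 were whole multiples of 1 step (100% within 0.01 read), so reads were recovered. The same table from the authors has log2 fold changes and standard errors. The 5 HTSeq summary rows held 30.4% to 32.8% of reads in DMSO and 40.4% to 46.9% in compound 28 and entered neither the totals nor the tests; 8 rows with date-like names were kept but not named. GENCODE 29 (GRCh38) matched 95.8% of rows by symbol and gave lengths, strand and order; its build differs from that of the submitters, and distances and coordinates here are on GRCh38.

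The fit was limma-trend (limma 3.58.1, R 4.3.3) on log2(normalized count + 1) over the 18278 genes that passed edgeR's filterByExpr, with Benjamini-Hochberg adjustment and a threshold of 0.05. Because the table holds normalized values, edgeR 4.0.16 and DESeq2 1.42.0 on recovered reads were alternatives. The test was checked on simulated counts in which few genes changed, as many up as down, and none with very low counts. In these data most tested genes were called, so that check does not vouch for the calls here. The 4 genes and all lists were chosen with earlier results of these data known. Named genes are the 4 loci, their neighbours, the called member of each list with the largest rise and fall and its most abundant member, and the 3 nearest genes per AOC locus; AOC1, PSME1, PSME2, PSME4, LOXL3 and single markers were named after their values were seen. The floor of 3 reads covers counting error only, whereas the SDs hold the scatter between libraries.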

Additional observations from a re-analysis of the deposited data

How the results depend on the processing

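The direction of change of PSME3, AOC2, AOC3 and AOC4P was the same under all alternatives run: 3 other scalings, pseudocounts 0.5 and 5, no filter, edgeR, DESeq2, the replicate block and each library left out. For AOC4P, with 0 reads in each DMSO library, none of these could have given a fall. The 4 loci were also chosen by their change, so nothing is read from the shared direction. With library sizes only the log2 changes were 4.51 (AOC2), 7.61 (AOC4P) and -0.80 (PSME3). Scaling on 13 mitochondrially encoded mRNAs gave 3.52 (AOC2), 7.54 (AOC3), 7.11 (AOC4P) and -1.81 (PSME3). A pseudocount of 5 gave 7.24 (AOC3) and 5.54 (AOC4P), and 0.5 gave 8.83 (AOC4P); edgeR and DESeq2 gave AOC4P 10.9 in both, a fitted value that depends on how 0 reads are treated and is no bound. Without 1 library the ranges were 4.73 to 5.10 (AOC2), 7.90 to 9.21 (AOC3), 7.76 to 7.92 (AOC4P) and -0.44 to -0.28 (PSME3). With the longest transcript as the length, the levels per kilobase in compound 28 were 1235 (PSME3), 268 (AOC3) and 99.7 (AOC4P).

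Counts of calls moved with the scaling. Library sizes only gave 4218 genes higher, 7 neighbours lower, 1 amine oxidase higher, and 2 proteasome genes higher and 10 lower. Mitochondrial scaling gave 1810 genes higher and 13885 lower, 2 neighbours higher and 8 lower, 1 amine oxidase higher and 6 lower, 0 proteasome genes higher and 21 lower, and 36.4% and 36.9% higher among genes beyond on the same and other strand. The directions of BECN1 (-0.40 and -1.40) and PSMA7 (-0.14 and -1.15) turned under library sizes only and mitochondrial scaling, and those of PSMA1 (-0.45) and RPL27 (-0.34) under the latter. The authors' scaling gave 6487 higher and 6813 lower, edgeR 6385 and 6893, and DESeq2 6667 and 6464.

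The replicate numbers did not pair the samples: deviations of same-numbered libraries correlated at -0.02, 0.04 and 0.07, and not every library correlated best with its own number. With the replicate block 6511 genes were higher and 6769 lower, and 4 and 4 neighbours. AOC3 and AOC4P rest on 12 and 0 reads in DMSO, which limits any fold for them.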
